A study of Homo sapiens with 12 samples.

Results

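Kinesins, cytoplasmic dynein and dynactin drive movement along microtubules. In control cultures some of the genes for them were higher in sorted motor neurons and others in the cells left behind. Of 61 tested, 21 were higher and 17 lower, and the rest did not pass the test. The genes were picked by symbol, with earlier results of these data known: names starting with KIF, KIFC or KLC and a digit, with DYNC, DYNLL, DYNLRB or DYNLT, or with DCTN and a digit, with 5 hyphenated symbols and KIFBP left out. This gave 65 of the 28278 genes in the table. Roles were assigned from general knowledge, also with earlier results known. By role they comprised 14 mitotic kinesins, 19 transport kinesins and kinesin light chains, 11 subunits of cytoplasmic dynein-1, 6 subunits of dynactin, 2 subunits of dynein-2 and 13 ciliary and other kinesins. Enough counts for a test in at least 1 comparison were found for 61 of them. The 4 that were never tested were KIF2B with 0 counts over all libraries, DYNLT3 with 7, KIF25 with 29 and DYNLRB2 with 39.

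RNA came from WA09-Islet1-GFP cells, human embryonic stem cells of wild-type genotype in which GFP marks expression of the motor neuron transcription factor Islet1. After a 16 day motor neuron differentiation and replating, the cultures were exposed for 16 hours to cis-chlordane, an organochlorine pesticide, or to a matching volume of the solvent DMSO, and were sorted by FACS into GFP-positive and GFP-negative cells. The labels give a dose of 10 µM, the paper's methods another dose. The 12 libraries form 4 groups of 3 biological replicates: control GFP-positive, treated GFP-positive, control GFP-negative and treated GFP-negative. All groups come from 1 cell line, and the GFP-negative groups hold whatever else the cultures contained. Since titles of treated libraries open with untreated, treatment was read from the treatment entry.

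Kinesins walk along microtubules, most of them toward the plus end, whereas cytoplasmic dynein, with its cofactor dynactin, walks toward the minus end. In an axon the plus ends point away from the cell body, so kinesins carry vesicles and mitochondria outward and dynein returns signalling endosomes and worn organelles. Another set of kinesins builds the spindle, moves chromosomes and completes cytokinesis, and is made mainly in dividing cells, while dynein-2 and a few kinesins serve cilia.

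The libraries held 23414935 to 38347050 counts (median 31553596). Levels are given as CPM, the counts of a gene scaled to a common library size after TMM normalisation over the 12 libraries, as mean ± SD with n = 3 per group, and levels of different genes are compared only as CPM per kb of the canonical transcript. Differences were tested with edgeR's quasi-likelihood test and Benjamini-Hochberg adjustment over all genes tested. A gene rose or fell where its adjusted p was under 0.05, and was a DEG where the change was also at least 2-fold. ISL1, the gene of Islet1, had 65.7 ± 3.12 CPM in control GFP-positive, 12.0 ± 3.71 in treated GFP-positive, 2.57 ± 0.203 in control GFP-negative and 0.548 ± 0.152 in treated GFP-negative libraries. Summed over 12 neuron markers, control GFP-positive libraries had 27939 to 29417 CPM and control GFP-negative libraries 10820 to 11310, so neuronal RNA was also present in the GFP-negative fraction. Over 12 neural progenitor markers the sums were 3434 to 3786 and 6717 to 8960 CPM. In bulk RNA, fewer cells of a type and less RNA per cell cannot be told apart.

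Between the control sort fractions, 10 of 61 tested motor genes were DEGs higher in GFP-positive cells (16.4%, against 7.47% of all 15404 genes tested) and 15 were DEGs lower (24.6% against 15.3%). Without the limit on fold change the counts were 21 higher (34.4% against 17.1%) and 17 lower (27.9% against 23.1%). As DEGs both directions held more motor genes than the background share, while the lower share at any fold was close to it. Of the 15 lower DEGs 12 were mitotic kinesins. Among 34 transport kinesins, dynein-1 and dynactin genes 1 was a lower DEG (2.94% against 15.3%). After cis-chlordane, 5 of 60 tested motor genes were DEGs higher in GFP-positive cells (8.33% against 12.8% of 15333 genes) and 6 were lower (10% against 11.2%). At any fold 16 rose (26.7% against 26.5%) and 16 fell (26.7% against 24.4%), which is close to the background in both directions. In GFP-negative cells 3 of 60 were DEGs higher (5% against 8.59% of 15513 genes) and 10 lower (16.7% against 9.75%), and at any fold 6 rose (10% against 15.3%) and 17 fell (28.3% against 16.2%). In that fraction 7 of the 10 lower DEGs were mitotic kinesins.

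**Figure D1:**
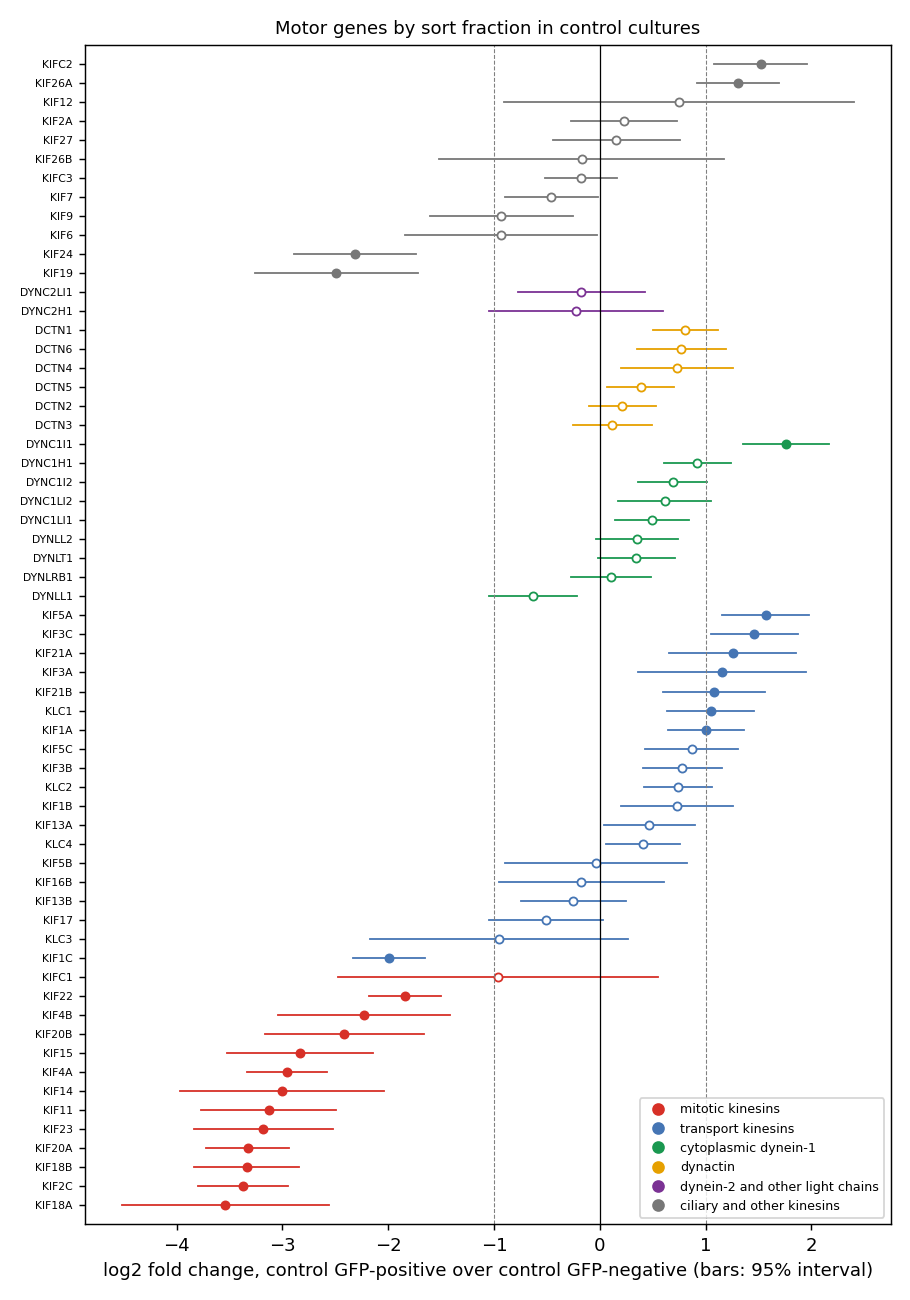
Log2 fold change of each tested motor gene between control GFP-positive and control GFP-negative libraries (x axis, n = 3 each), by role and in order of size, with bars for the 95% interval. Filled points are DEGs and dashed lines mark a 2-fold change. The 13 mitotic kinesins all lie to the left, 12 of them past the line, whereas 27 of the 34 transport kinesins, dynein-1 and dynactin genes lie to the right of 0.

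Mitotic kinesins were the group that separated the sort fractions most widely. In control cultures 12 of the 13 tested were DEGs lower in GFP-positive than in GFP-negative cells (92.3% against 15.3% of all genes), with a median log2 fold change of -3.0 against -0.02 over all genes tested. The sum over the 14 genes was 103, 114 and 111 CPM in the 3 control GFP-positive libraries and 620.3, 599.5 and 589 CPM in the control GFP-negative libraries. The GFP-positive sum was 18.1% of the GFP-negative one, and no GFP-positive library came near the GFP-negative range.

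KIF2C, which depolymerises microtubules at centromeres, had 8.46, 11.4 and 12.8 CPM in control GFP-positive and 111, 109 and 94.7 CPM in control GFP-negative libraries. It differed by -3.37 ± 0.19 (SE) on the log2 scale (adjusted p = 1.3e-06, edgeR's quasi-likelihood test). KIF20A, a motor of the central spindle in cytokinesis, had 5.89, 6.46 and 7.39 against 61.4, 59.7 and 63.5 CPM. In both genes the lowest GFP-negative library lay several times above the highest GFP-positive one. KIF18A, which aligns chromosomes at the metaphase plate, had the lowest log2 fold change of the group at -3.54 ± 0.44 (SE, adjusted p = 0.00015) on low levels of 0.589 ± 0.235 against 6.32 ± 2.56 CPM.

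KIF22, a chromokinesin that pushes chromosome arms, differed least among the DEGs of the group, by -1.84 ± 0.15 on the log2 scale (adjusted p = 1.1e-05), with 58.2, 69.7 and 57.2 CPM in control GFP-positive and 235, 201 and 179.9 CPM in control GFP-negative libraries. It alone contributed 61.7 ± 6.97 of the 109 ± 5.72 CPM that the group summed to in control GFP-positive cells. Per kb of transcript, KIF22 stood at 29.7 CPM in these cells, whereas KIF2C stood at 3.81, KIF20A at 2.13 and KIF11 at 0.803. The one member that did not pass the test was KIFC1, a minus-end motor that focuses spindle poles, with 0.347 ± 0.368 against 0.633 ± 0.144 CPM. KIF4B is a close copy of KIF4A, and how reads shared by both were counted is not stated, so its values (0.59 ± 0.19 and 2.6 ± 0.216 CPM) are uncertain.

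The partners of these kinesins in mitosis moved with them. All 27 genes of a list of mitotic regulators and markers, such as AURKB, BIRC5 and MYBL2, were DEGs lower in control GFP-positive cells (against 15.3% of all genes, median log2 fold change -3.12), and their sum was 335 to 441 CPM against 3012 to 3090 CPM in GFP-negative libraries. AURKB, the kinase of the chromosomal passenger complex, had 5.03 ± 0.36 against 60.8 ± 8.36 CPM. Of 11 tested neural progenitor markers, 9 were also DEGs lower in the GFP-positive fraction.

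Mitotic genes share promoter elements, among them the CHR (TTTGAA, or TTCAAA on the other strand) and the CCAAT box (CCAAT, or ATTGG on the other strand), which bind cell-cycle complexes and the factor NF-Y. Promoters from RefSeq on GRCh38.p14, read over the 250 bases before the start, were matched for 53 of the 65 genes, all 14 mitotic kinesins among them. To show how the motifs lie, 3 mitotic kinesins that hold both, KIF20A without the CHR, and DYNC1I1, the transport gene with the largest rise between the fractions, were picked after the search and are printed 5′ to 3′ with both motifs in capitals. They lie at chr10:92592880-92593129 for KIF11, chr15:69414099-69414348 for KIF23, chrX:70289854-70290103 for KIF4A, chr5:138178862-138179111 for KIF20A and chr7:95772304-95772553 for DYNC1I1, all on the plus strand.
KIF11: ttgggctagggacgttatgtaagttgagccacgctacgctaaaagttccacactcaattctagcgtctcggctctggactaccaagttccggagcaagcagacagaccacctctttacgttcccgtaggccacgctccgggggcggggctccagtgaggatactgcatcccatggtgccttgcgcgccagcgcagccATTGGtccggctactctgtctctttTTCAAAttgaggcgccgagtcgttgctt
KIF23: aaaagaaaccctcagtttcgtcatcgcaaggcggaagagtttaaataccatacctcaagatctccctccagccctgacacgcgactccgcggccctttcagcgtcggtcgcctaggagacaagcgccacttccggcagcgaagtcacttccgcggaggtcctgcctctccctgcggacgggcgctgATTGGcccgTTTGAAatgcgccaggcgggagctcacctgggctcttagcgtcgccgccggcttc
KIF4A: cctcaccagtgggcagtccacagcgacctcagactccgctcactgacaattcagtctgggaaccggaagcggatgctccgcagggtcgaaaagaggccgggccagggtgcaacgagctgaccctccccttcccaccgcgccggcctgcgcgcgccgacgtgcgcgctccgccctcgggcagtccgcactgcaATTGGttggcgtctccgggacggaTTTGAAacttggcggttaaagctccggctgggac
KIF20A: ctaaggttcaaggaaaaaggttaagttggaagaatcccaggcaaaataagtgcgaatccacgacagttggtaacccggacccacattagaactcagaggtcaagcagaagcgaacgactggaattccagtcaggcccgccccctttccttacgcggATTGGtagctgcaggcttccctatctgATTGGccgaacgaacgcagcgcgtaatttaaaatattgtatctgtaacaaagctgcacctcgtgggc
DYNC1I1: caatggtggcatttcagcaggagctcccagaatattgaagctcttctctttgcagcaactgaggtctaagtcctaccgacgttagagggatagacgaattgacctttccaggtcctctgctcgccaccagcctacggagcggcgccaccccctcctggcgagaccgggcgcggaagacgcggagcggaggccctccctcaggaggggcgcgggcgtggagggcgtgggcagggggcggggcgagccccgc
KIF11, KIF23 and KIF4A each held 1 CHR and 1 CCAAT box that did not overlap, with the CHR starting 28, 55 and 34 bases before the start. KIF20A held 2 CCAAT boxes and no CHR, and DYNC1I1 neither motif. Over all mitotic kinesins the CCAAT box was found in 11 of 14 promoters (78.6%), the CHR in 5 (35.7%) and both in 4 (28.6%), against 32.0%, 13.3% and 4.69% of the 35116 promoters of the table. Of 29 matched promoters of transport kinesins, dynein-1 and dynactin, 8 held a CCAAT box (27.6%), 1 a CHR (3.45%) and 1 both, namely KIF5B. A match of these letters is a description of the window and was not tested as a site.

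cis-Chlordane lowered the mitotic kinesins of the GFP-negative cells. Of 13 tested, 10 fell (76.9% against 16.2% of all genes) and 7 were lower DEGs (53.8% against 9.75%), while 0 rose and 0 did at an unadjusted p under 0.05, and the median log2 fold change was -1.04 where that of all genes was -0.01. Their sum was 620.3, 599.5 and 589 CPM in the control and 245, 287 and 244 CPM in the treated libraries. The treated sum was 42.9% of the control one, with no overlap.

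KIF18B, which destabilises astral microtubules, fell the furthest. It had 60.8, 63.8 and 47.5 CPM in control and 10.0, 13.2 and 9.45 CPM in treated GFP-negative libraries, -2.42 ± 0.21 (SE) on the log2 scale with an adjusted p of 6.5e-05. KIF20A went from 61.5 ± 1.89 to 13.3 ± 2.95 CPM (-2.23 ± 0.20, adjusted p = 7.4e-05). KIF4A, a chromokinesin of the central spindle, went from 69.3 ± 4.36 to 28 ± 8.2 CPM (-1.33 ± 0.22, adjusted p = 0.0018). The bipolar spindle motor KIF11 had 26.1, 26.7 and 45.1 CPM in control and 13.9, 12.9 and 11.7 CPM in treated libraries (-1.37 ± 0.24, adjusted p = 0.0025), and control replicate 3 lay well above its fellows. KIF23 of the centralspindlin complex (-1.04 ± 0.20), KIF22 (-1.05 ± 0.16) and KIF4B (-1.5 ± 0.32) were the other DEGs. KIF2C (-0.94), KIF15 (-0.88) and KIF20B (-0.94) fell by less than 2-fold, and KIF14 (-0.87, adjusted p = 0.10), KIF18A (-0.91, adjusted p = 0.060) and KIFC1 (0.36, adjusted p = 0.70) did not pass the test.

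Among the mitosis partners in GFP-negative cells 24 of 27 fell, 20 of them as DEGs (against 16.2% and 9.75% of all genes), with a median of -1.43 and a sum of 3012 to 3090 CPM in control and 944 to 1318 CPM in treated libraries. MKI67, the proliferation marker, went from 169 ± 26.6 to 32.0 ± 14 CPM. Markers of several cell types also fell in treated GFP-negative cells. Of 11 neural progenitor markers 8 fell, 7 as DEGs, and 1 rose (median -1.26), while their summed level was 6717 to 8960 CPM in control and 7532 to 8583 CPM in treated libraries. Of 9 motor neuron markers 6 were lower DEGs, and the treated sum was 37.3% of the control one. Of 12 neuron markers 10 fell, 2 as DEGs, and 2 rose, with a treated sum of 59.1%. Of 7 mesenchymal markers 3 were lower DEGs and 1 rose, with a treated sum of 65.5%. Astrocyte and oligodendrocyte markers were split, with 1 higher and 1 lower DEG of 5 tested. The part of these shifts in the fall of mitotic kinesins was not tested.

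In GFP-positive cells the mitotic kinesins did not move together. Of 12 tested, 3 were lower DEGs (25% against 11.2% of all genes) and 1 was a higher DEG (8.33% against 12.8%). At any fold 4 fell (33.3% against 24.4%) and 2 rose (16.7% against 26.5%), with a median of -0.39 where all genes had 0.03. Their sum was 103 to 114 CPM in control and 61.8 to 72.4 CPM in treated libraries, 60.4% of the control sum with no overlap. KIF18B went from 6.1 ± 1.49 to 1.93 ± 0.205 CPM (-1.59 ± 0.28, adjusted p = 1.1e-05), KIF20A from 6.58 ± 0.757 to 2.74 ± 0.562 (-1.19 ± 0.26, adjusted p = 0.00022) and KIF4A from 9.6 ± 1.26 to 4.49 ± 0.799 (-1.03 ± 0.23, adjusted p = 0.00033). KIF22 fell by 0.92 on the log2 scale, from 61.7 ± 6.97 to 31.1 ± 2.10 CPM, and so carried most of the fall of the sum. KIF11 had 3.65, 3.48 and 4.96 CPM in control and 3.33, 3.69 and 5.72 CPM in treated libraries, which overlap, and its log2 fold change of 0.15 (adjusted p = 0.67) has a 95% interval from -0.40 to 0.70. Of the 27 mitosis partners 8 were DEGs lower and 0 higher (against 11.2% and 12.8% of all genes), 15 fell and 1 rose at any fold, and their sum was 335 to 441 CPM in control and 222 to 238 CPM in treated libraries.

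KIF20B, a cytokinesis motor also described in neuronal polarisation, was the higher DEG. It had 2.01, 1.88 and 1.98 CPM in control and 3.54, 2.38 and 7.55 CPM in treated GFP-positive libraries, higher by 1.27 ± 0.33 (SE) on the log2 scale with an adjusted p of 0.0015. Treated replicate 3 was the highest by far, and without it the change was 0.66 with an adjusted p of 0.087. KIF23 had 3.21, 2.46 and 5.02 against 5.4, 4.35 and 6.33 CPM, which overlap, and its rise of 0.66 (adjusted p = 0.043) was lost when control replicate 1 (0.59, adjusted p = 0.11), control replicate 2 (0.44, adjusted p = 0.25), treated replicate 1 (0.64, adjusted p = 0.083) or treated replicate 3 (0.52, adjusted p = 0.11) was left out. The KIF23 rise did not pass in DESeq2 (0.63, adjusted p = 0.055) or in the fit of all 12 libraries (0.59, 0.068) either.

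**Figure D2:**
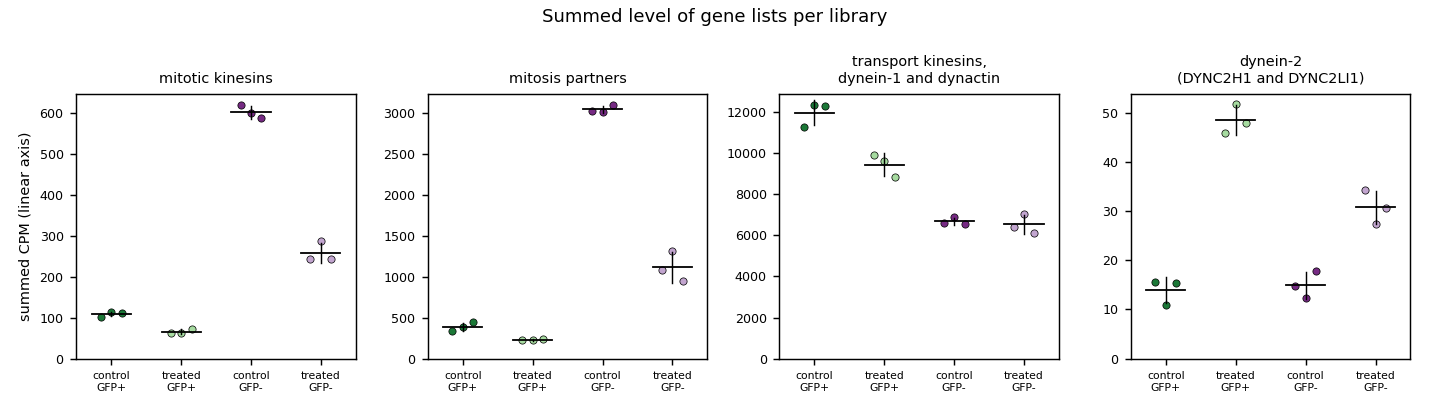
Summed CPM (linear axes) of 4 gene lists in each library, with bars for mean and SD of the 3 libraries of a group. Mitotic kinesins and mitosis partners are highest in control GFP-negative libraries and lower in every treated one, transport motors are highest in control GFP-positive libraries, and the dynein-2 pair is higher in every treated than in every control library.

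The response of GFP-positive and GFP-negative cells to the pesticide was compared by an interaction term, the log2 fold change in GFP-positive minus that in GFP-negative cells. ISL1 itself was lower in treated libraries of both fractions. Whether the GFP gate held the same cells in treated and control cultures was not tested. Of 61 motor genes, 2 differed in the upward direction (3.28%, against 0.968% of 16226 genes) and 0 in the downward direction (0% against 1.22%), where 11 had an unadjusted p under 0.05. Both were mitotic kinesins that fell in GFP-negative cells and had positive log2 fold changes in GFP-positive cells: KIF20B, by 2.12 on the log2 scale (standard error 0.53, adjusted p = 0.048), and KIF23, by 1.61 (standard error 0.35, adjusted p = 0.025). The KIF20B call was lost in 10 and the KIF23 call in 7 of the 12 fits that leave out 1 library, where the adjusted p reached 0.15 and 0.081 without control GFP-positive replicate 2. The GFP-positive and GFP-negative libraries of a replicate number were taken to come from the same culture, which their titles do not state. The interaction test above does not use this pairing. With culture as a block 5 motor genes were called upward (against 3.2% of all genes) and 3 downward (4.59%). In that blocked fit KIF23 differed by 1.64 (adjusted p = 0.0023), KIF20B by 1.90 (0.021), KIF11 by 1.37 (0.0081), KIF20A by 0.97 (0.044) and KIF2A by 0.81 (0.034), while DCTN2 (-0.63, adjusted p = 0.042), KIFC3 (-0.88, 0.0088) and KLC2 (-0.59, 0.046) differed in the other direction. Of the 34 transport kinesins, dynein-1 and dynactin genes, 0 were called without the block by edgeR's quasi-likelihood test, and 10 had an unadjusted p under 0.05.

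**Figure D3:**
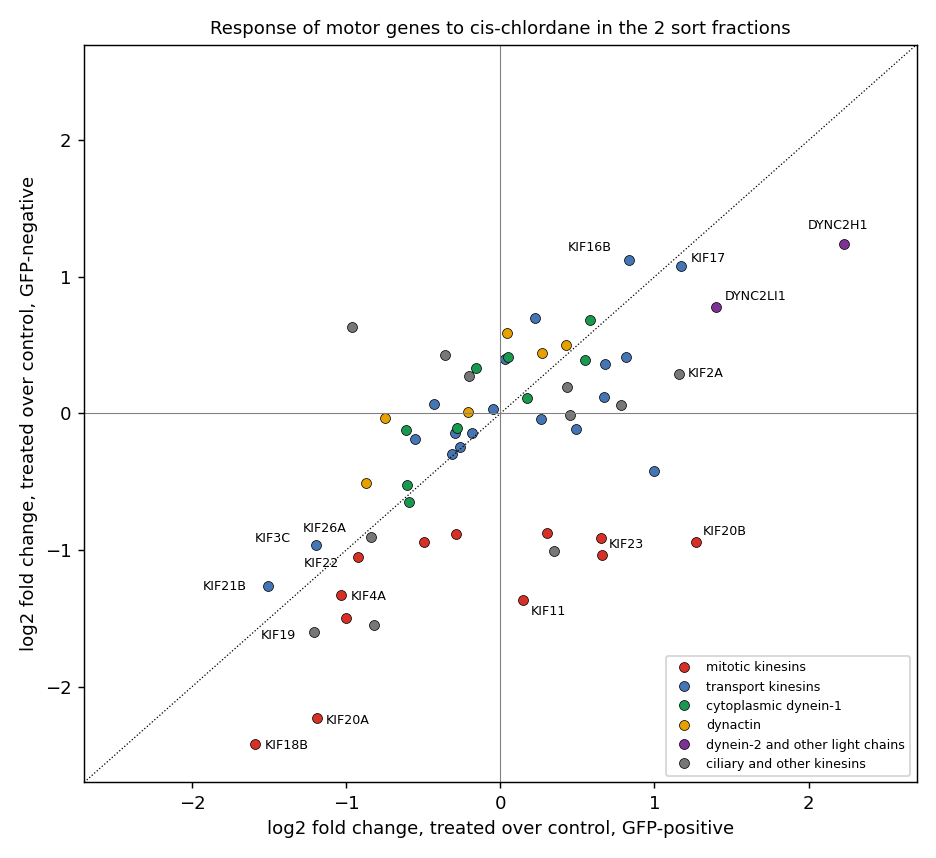
Log2 fold change of treated over control in GFP-positive (x axis) and GFP-negative libraries (y axis) for each motor gene tested in both, coloured by role, with a dotted line of equal change. Mitotic kinesins lie low on the y axis but spread widely along the x axis. Transport motors lie on both sides of 0, from -1.51 to 1.17 on the x axis and from -1.26 to 1.12 on the y axis. DYNC2H1 is the point furthest to the upper right.

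Kinesin-1, the main anterograde motor of axons, is built from a KIF5 heavy chain and kinesin light chains. KIF5A (chr12:57546026-57586633), the neuronal heavy chain that is mutated in forms of spastic paraplegia and ALS, had 481, 554 and 643 CPM in control GFP-positive, 506, 447 and 455 in treated GFP-positive, 138, 192 and 195 in control GFP-negative and 157, 175 and 151 in treated GFP-negative libraries. All GFP-positive libraries thus lay above all GFP-negative ones, while treated and control libraries overlapped in each fraction, with treated GFP-positive replicates 2 and 3 below every control. The difference between the control fractions was 1.57 on the log2 scale (standard error 0.18, adjusted p = 0.00011), while treatment gave -0.19 (95% interval -0.51 to 0.13, adjusted p = 0.34) in GFP-positive and -0.14 (-0.53 to 0.25, adjusted p = 0.58) in GFP-negative cells.

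KIF5B, the heavy chain used by most cell types, had 75.8, 77.9 and 98.8 CPM in control and 137, 127 and 161 CPM in treated GFP-positive libraries. KIF5C, another neuronal form, had 261, 149 and 214 against 335, 334 and 279.8 CPM. Both were higher in every treated library, by 0.82 (standard error 0.16, adjusted p = 9.0e-05) and 0.67 (0.17, 0.0016), short of 2-fold. With the trend of each library with GC content removed, these changes were 0.38 (adjusted p = 0.016) and 0.50 (0.014). In the fit of all 12 libraries KIF5B had 0.75 (adjusted p = 0.065). In control GFP-negative libraries KIF5B varied widely, at 33.4, 74.3 and 131 CPM, against 105, 109 and 108 in treated ones. Its treatment difference there was 0.41 (adjusted p = 0.44), and without control GFP-negative replicate 3 it was 0.97 (adjusted p = 0.020). The 3 control GFP-negative libraries also differ over all genes in how levels follow transcript length, with rank correlations of -0.55, 0.26 and 0.46. Other groups differ likewise, with -0.29, -0.21 and 0.45 in control GFP-positive and -0.04, 0.33 and -0.27 in treated GFP-negative libraries. The part of these trends in the KIF5B values was not tested.

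Per kb of transcript, control GFP-positive cells held 96.8 CPM of KIF5A, 29.9 of KIF5C and 14.4 of KIF5B, and the 3 genes did not overlap in any library of the group. In treated cells of the fraction the values were 81.2, 45.5 and 24.1. The light chains KLC1 and KLC2 stood above them at 298 and 165 CPM per kb in control GFP-positive cells. KLC1 was higher in control GFP-positive than GFP-negative cells by 1.05 (standard error 0.18, adjusted p = 0.0014) and KLC2 by 0.73 (0.14, 0.0027). After treatment KLC2 went from 486 ± 66.3 to 344 ± 46.7 CPM in GFP-positive cells (-0.43, adjusted p = 0.024), KLC1 from 760 ± 118 to 592 ± 64.6 (-0.29, adjusted p = 0.13), and KLC4 rose in GFP-negative cells (0.70, adjusted p = 0.0085). KLC3 was near the limit of detection in all groups, with means of 0.226 to 0.422 CPM.

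**Figure D4:**
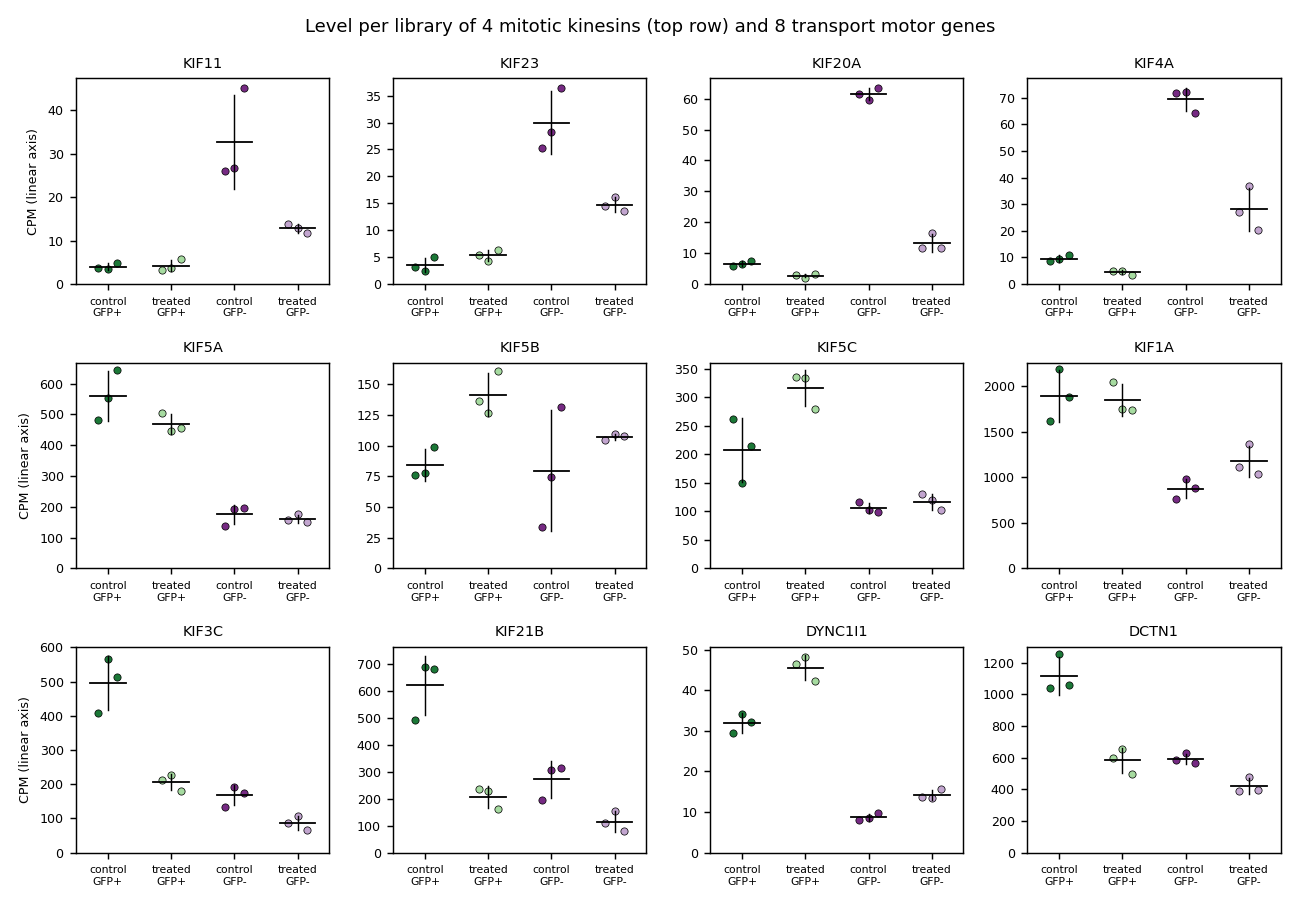
CPM (linear axes) of 12 motor genes in each library, with bars for mean and SD of the 3 libraries of a group. The 4 mitotic kinesins of the top row peak in control GFP-negative libraries, KIF5A and KIF1A follow the sort fraction, KIF5B and KIF5C are higher in treated GFP-positive libraries, and KIF3C, KIF21B and DCTN1 are lower in treated libraries of both fractions.

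Kinesin-3 motors carry synaptic vesicle precursors and dense-core vesicles. KIF1A (chr2:240713761-240824293) was the kinesin heavy chain with the most RNA per kb, at 207 CPM in control GFP-positive cells. It had 1617, 2185 and 1880 CPM in these, 2046, 1752 and 1738 in treated GFP-positive, 766, 977 and 883 in control GFP-negative and 1115, 1363 and 1040 in treated GFP-negative libraries. The fractions differed by 1.01 on the log2 scale (standard error 0.16, adjusted p = 0.00077), and treatment gave 0.03 (adjusted p = 0.89) in GFP-positive and 0.40 (adjusted p = 0.085) in GFP-negative cells. The latter passed the test with all 12 libraries (0.42, adjusted p = 0.038) and with the GC trend (0.59, 0.026) or the length trend removed (0.45, 0.025). KIF1B was higher in GFP-positive controls by 0.73 (adjusted p = 0.032), a call that was lost without control GFP-positive replicate 3 (0.54, adjusted p = 0.14) or control GFP-negative replicate 2 (0.82, adjusted p = 0.052). KIF1C, a widely expressed relative, went the other way, with 38.6, 36.4 and 37.2 CPM in control GFP-positive and 155, 147 and 114 CPM in control GFP-negative libraries (-1.99 ± 0.15, adjusted p = 6.5e-06). It was the one transport motor that was a DEG lower in the GFP-positive fraction, and it rose there by 0.49 (adjusted p = 0.016) after treatment.

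Of the other kinesin-3 genes, KIF13A fell (-0.56, adjusted p = 0.013) and KIF13B rose (0.68, adjusted p = 0.0066) in treated GFP-positive cells. KIF16B, a motor of early endosomes, rose in both fractions, from 2.65 ± 0.36 to 4.53 ± 0.873 CPM in GFP-positive (0.83, adjusted p = 0.011) and from 2.78 ± 1.06 to 6.15 ± 1.01 CPM in GFP-negative cells (1.12, adjusted p = 0.034). The latter call was lost without control replicate 1 (0.84, adjusted p = 0.050) or 2 (1.35, 0.051) or treated replicate 1 (1.03, 0.13), 2 (1.07, 0.092) or 3 (1.24, 0.062), and with library size alone (1.05, 0.062).

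Kinesin-2 works as a heterotrimer of KIF3A, KIF3B or KIF3C, and the adaptor KIFAP3, or as a dimer of KIF17. In control cultures KIF3A (1.15), KIF3B (0.78) and KIF3C (1.46) were higher in GFP-positive cells, as was KIFAP3 (1.44). The KIF3A call (adjusted p = 0.026) was lost without control GFP-positive replicate 1 (1.16, adjusted p = 0.070), 2 (1.25, 0.065) or 3 (1.09, 0.083) or control GFP-negative replicate 2 (1.24, 0.050), with 10.8, 27 and 36.8 CPM in the GFP-negative libraries. KIF3C, the neuronal subunit, was the only one of the trimer's motors to change with treatment in this test. It had 409.5, 566 and 513 CPM in control and 213, 226 and 181 CPM in treated GFP-positive libraries, a fall of 1.19 on the log2 scale (standard error 0.16, adjusted p = 1.8e-07), and 135, 192 and 175 against 87.3, 106 and 67.0 CPM in GFP-negative libraries (-0.97 ± 0.21, adjusted p = 0.0068). KIF3A (0.27) and KIF3B (-0.05) did not pass the test in GFP-positive cells.

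KIF17, a motor of dendrites and cilia, rose in both fractions. It had 3.91, 4.61 and 3.62 CPM in control and 9.39, 9.07 and 7.73 CPM in treated GFP-positive libraries (1.17 ± 0.23, adjusted p = 7.1e-05), and 5.22, 6.22 and 4.59 against 12.0, 11.5 and 11 CPM in GFP-negative libraries (1.08 ± 0.23, adjusted p = 0.0061). Neither pair of groups overlapped, and with the GC trend removed the rises were 1.57 and 1.31. KIF21B, a kinesin-4 that limits microtubule growth in neurons, had the largest fall of a transport motor in both fractions. It had 494, 689 and 682 CPM in control and 236, 228 and 161 CPM in treated GFP-positive libraries (-1.51 ± 0.17, adjusted p = 5.2e-09), and 194, 307 and 316 against 109, 156 and 79.8 CPM in GFP-negative libraries (-1.26 ± 0.27, adjusted p = 0.0064). Its relative KIF21A, also higher in GFP-positive controls (1.26 ± 0.27, adjusted p = 0.0044), had -0.31 (adjusted p = 0.10) and -0.30 (adjusted p = 0.42), and with the GC trend removed -0.67 (adjusted p = 0.00014) in GFP-positive cells.

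Cytoplasmic dynein-1 is a dimer of the heavy chain DYNC1H1 with intermediate, light intermediate and light chains. Of its 9 tested genes, 5 were higher at any fold and 1 lower in control GFP-positive cells (against 17.1% and 23.1% of all genes). The neuronal intermediate chain DYNC1I1 differed most, with 29.5, 34.2 and 32.1 CPM in control GFP-positive, 46.4, 48.1 and 42.2 in treated GFP-positive, 8.05, 8.43 and 9.74 in control GFP-negative and 13.6, 13.4 and 15.6 in treated GFP-negative libraries. No 2 of the 4 groups overlapped. The fractions differed by 1.76 (standard error 0.18, adjusted p = 4.7e-05), and treatment raised it by 0.58 (0.17, 0.0051) in GFP-positive and 0.68 (0.20, 0.028) in GFP-negative cells. The latter call was lost without control replicate 2 (adjusted p = 0.11) or treated replicate 1 (0.11), 2 (0.053) or 3 (0.091), at 0.60 to 0.73. It was also lost with library size alone (0.61, adjusted p = 0.056) and without the filter (0.66, 0.053).

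DYNC1H1 (chr14:101964573-102056443) had 1629, 1707 and 1971 CPM in control and 1542, 1438 and 1193 CPM in treated GFP-positive libraries, which do not overlap but differ by only -0.28 (adjusted p = 0.14). Its fractions differed by 0.92 (standard error 0.14, adjusted p = 0.00060). DYNC1I2, the widely used intermediate chain, was higher in GFP-positive controls by 0.69 (adjusted p = 0.0042) and had 0.05 after treatment (adjusted p = 0.81), a value that with the GC trend removed was -0.44 (adjusted p = 0.011). DYNC1LI2 rose by 0.55 in treated GFP-positive cells (adjusted p = 0.0037), while the light chains DYNLL1 (-0.60, adjusted p = 0.0026), DYNLL2 (-0.59, adjusted p = 0.0016) and DYNLRB1 (-0.61, adjusted p = 0.0019) fell. DYNLL1 was also the subunit that was lower in GFP-positive than GFP-negative controls (-0.63, adjusted p = 0.023). DYNLL2 had 1065, 932 and 948 CPM in control and 620.4, 626 and 618 CPM in treated GFP-positive libraries, and also fell in GFP-negative cells (-0.65, adjusted p = 0.030).

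Dynactin activates dynein and links it to cargo. DCTN1 (chr2:74361154-74392087) encodes its microtubule-binding arm p150Glued and is mutated in a familial motor neuron disease. It had 1037, 1255 and 1057 CPM in control and 599.8, 653 and 496 CPM in treated GFP-positive libraries, a fall of 0.87 on the log2 scale (standard error 0.16, adjusted p = 2.7e-05). All treated libraries lay far below all controls, and with the GC trend removed the change was -0.61 (adjusted p = 0.00053). In GFP-negative cells it had 586, 627 and 563 against 391, 479 and 393 CPM (-0.51, adjusted p = 0.027), a call lost without control replicate 2 (-0.47, adjusted p = 0.13) or treated replicate 1 (-0.47, 0.12) or 3 (-0.47, 0.058) or with the GC trend removed (-0.37, 0.066). DCTN3, a subunit of the shoulder, fell in GFP-positive cells (-0.75, adjusted p = 0.00027) and DCTN4 of the pointed end rose (0.42, adjusted p = 0.034), while in GFP-negative cells DCTN2, or dynamitin, rose (0.59, adjusted p = 0.0095). In control cultures DCTN1 (0.81), DCTN4 (0.73) and DCTN6 (0.77) were higher in GFP-positive cells.

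Over the 34 tested transport kinesins, dynein-1 and dynactin genes, 8 were higher DEGs (23.5% against 7.47% of all genes) and 1 a lower DEG (2.94% against 15.3%) between the control fractions, with a median of 0.65. At any fold 19 were higher (55.9% against 17.1%) and 2 lower (5.88% against 23.1%). In treated GFP-positive cells 9 rose (26.5%, the same share as over all genes) and 9 fell (26.5% against 24.4%), with a median of -0.01. Of these, 1 was a higher DEG (2.94% against 12.8%) and 2 were lower DEGs (5.88% against 11.2%). Their sum nevertheless differed, at 11253, 12322 and 12312 CPM in control and 9917, 9596 and 8821 CPM in treated libraries, since the genes that fell include abundant ones such as KIF21B, KIF3C, DCTN1 and DYNLL2. The median and the sum thus give different pictures of the same list, and the sum was not tested. In treated GFP-negative cells 5 rose (14.7% against 15.3%) and 4 fell (11.8% against 16.2%, median 0.02), with sums of 6564 to 6889 CPM in control and 6136 to 7037 CPM in treated libraries. Markers of the fraction itself moved in treated GFP-positive libraries: 8 of 9 motor neuron markers fell, 7 as DEGs, and their sum was 1766 to 1968 CPM in control and 521 to 709.8 CPM in treated libraries. The sum over 12 neuron markers was 27939 to 29417 and 15042 to 19815 CPM. Their part in the changes of transport motors was not tested.

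Dynein-2 returns cargo from the tip of the cilium. DYNC2H1, its heavy chain, had 7.34, 4.95 and 8.29 CPM in control and 31.8, 29.1 and 31.0 CPM in treated GFP-positive libraries, the largest rise of any motor gene in either fraction (2.23 ± 0.21 on the log2 scale, adjusted p = 6.5e-11, edgeR's quasi-likelihood test). Its light intermediate chain DYNC2LI1 had 8.24, 6.0 and 7.17 against 14.2, 22.8 and 16.8 CPM (1.40 ± 0.22, adjusted p = 1.7e-06). Treated and control libraries were far apart for both, and with the GC trend removed the rises were 1.79 and 0.97. In GFP-negative cells DYNC2H1 had 4.33, 6.22 and 11.7 against 20.6, 17.9 and 14.8 CPM (1.24 ± 0.34, adjusted p = 0.020), and DYNC2LI1 had 0.78 (adjusted p = 0.072). The DYNC2H1 call there was lost without control replicate 2 (1.14, adjusted p = 0.086) or treated replicate 1 (1.10, 0.11), 2 (1.24, 0.053) or 3 (1.34, 0.058). Between the control fractions neither gene passed the test (-0.23 and -0.18, with 95% intervals reaching from -1.05 to 0.60 and from -0.78 to 0.43).

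Among ciliary and other kinesins, KIF2A, a depolymeriser that prunes axon branches, rose in treated GFP-positive cells. It had 82.5, 49.8 and 79.2 CPM in control and 151, 145 and 155 CPM in treated libraries (1.16 ± 0.18, adjusted p = 1.2e-06), and 0.69 (adjusted p = 0.00077) with the GC trend removed. KIF27 (0.78, adjusted p = 0.0096) and KIF7 of Hedgehog signalling (0.45, adjusted p = 0.044) also rose there. KIF24, which restrains ciliogenesis at the centriole, and KIF19, which shortens motile cilia, were DEGs lower in GFP-positive than GFP-negative controls (-2.32 and -2.49) and in treated than control GFP-negative cells. KIF24 had 10.2, 13.7 and 14.8 CPM in control and 3.28, 6.18 and 3.93 CPM in treated GFP-negative libraries (-1.55 ± 0.30, adjusted p = 0.0036), and 2.79 ± 0.542 against 1.5 ± 0.468 CPM in GFP-positive cells (-0.82, adjusted p = 0.033).

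KIF19 rested on few counts. It had 4.01, 4.52 and 3.35 CPM in control and 1.34, 2.0 and 0.637 CPM in treated GFP-negative libraries (-1.60, adjusted p = 0.016, and 0.068 without control replicate 2 or 0.067 without treated replicate 1). In GFP-positive cells it had 0.857, 0.927 and 0.48 against 0.18, 0.429 and 0.318 CPM (-1.21, adjusted p = 0.038), and lost this call in DESeq2 (0.074) and without control replicate 1 (0.11) or 2 (0.16) or treated replicate 1 (0.17) or 3 (0.062). The call was also lost with library size alone (0.061), without the filter (0.057) and with the replicate block (0.0502). Neuronal KIFC2, a minus-end kinesin, and KIF26A, which binds but does not walk on microtubules, were higher in GFP-positive controls (1.52 ± 0.20 and 1.31 ± 0.17, adjusted p = 0.00022 and 0.00023). KIF26A fell after treatment in both fractions, from 337 ± 31.8 to 179.8 ± 41.8 CPM in GFP-positive (-0.84, adjusted p = 9.1e-05) and from 127 ± 29 to 68.4 ± 22.2 CPM in GFP-negative cells (-0.91, adjusted p = 0.022). KIF6, KIF9, KIF12 and KIF26B had means under 10 CPM in every group and did not pass the test for treatment in either fraction, KIF12 being tested in GFP-positive cells alone.

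Motors need adaptors to find cargo, and 42 genes of a list of adaptors and regulators were tested beside them. In treated GFP-positive cells 8 rose and 13 fell at any fold (against 26.5% and 24.4% of all genes), with 3 higher DEGs and 0 lower ones (against 12.8% and 11.2%). Among the higher DEGs were NIN, or ninein, which activates dynein and anchors microtubules at the centrosome (18.6, 18.1 and 21.7 against 76.2, 60.2 and 61.8 CPM, 1.83 ± 0.18, adjusted p = 1.8e-10), and HOOK1, a dynein adaptor for endosomes (1.93 ± 0.205 against 5.46 ± 1.63 CPM, 1.57 ± 0.28, adjusted p = 2.1e-05). In GFP-negative cells HAP1 (1.05, adjusted p = 0.0032) and HOOK1 (1.34, 0.034) were among 4 higher DEGs (against 8.59% of all genes), and RAB11FIP3 was the lower one (-1.47, 0.019, against 9.75%). HOOK1 lost this call without control replicate 1 (1.01, adjusted p = 0.051) or 2 (1.32, 0.11) or treated replicate 1 (1.31, 0.11), 2 (1.32, 0.087) or 3 (1.35, 0.10), and RAB11FIP3 without control replicate 2 (-0.98, 0.11) or treated replicate 1 (-1.49, 0.071) or 3 (-1.29, 0.078). The HOOK1 call was also lost with library size alone (1.26, 0.060) and without the filter (1.32, 0.0503). Between the control fractions BICDL1 (1.34), KIDINS220 (1.16) and KIFAP3 were among 4 higher DEGs (against 7.47% of all genes), and SPDL1, which brings dynein to kinetochores, was the lower one (-1.16 ± 0.20, adjusted p = 0.0013).

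GC content of the transcripts moved with the response in GFP-positive cells. Over 60 motor genes the rank correlation of GC content with the log2 fold change was -0.42, and over 14659 genes -0.40, where points share libraries and base composition. It was -0.064 and -0.24 in GFP-negative cells. KIF20B, DYNC2H1, KIF5B and KIF11 have 34.3%, 38.3%, 39.1% and 39.3% GC, while KIF21B, KIF3C and KIF17 have 59.8%, 56.0% and 63.1%. With the trend removed in each library, 3 motor genes were higher DEGs in GFP-positive cells in place of 5, and 4 lower in place of 6. The share of all genes called in that fit is not given, so the drop is not read as particular to motor genes. KIF20B then had 0.65 (adjusted p = 0.10) and KIF23 0.35 (adjusted p = 0.26), KIF19 -0.78 (adjusted p = 0.17), and KIF1A 0.38 (adjusted p = 0.027), whereas KIF18B (-1.31), KIF20A (-1.22), KIF4A (-1.13), KIF21B (-1.21), KIF17 (1.57) and DYNC2H1 (1.79) stayed DEGs.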

How the data were processed

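RNA was sequenced from 12 libraries in 4 groups of 3, grouped by the treatment, sort fraction and replicate number in the labels. The authors prepared stranded mRNA libraries and, per the labels, used hg38, HISAT2 and featureCounts. The deposited values are whole-number counts per gene without normalisation, and 0 per-sample columns were left unused. The motor genes and all lists of genes were chosen with earlier results of these data known.

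Counts were tested with edgeR 4.0.16 in R 4.3.3: TMM scaling, filterByExpr (minimum count 10, minimum total 15), a quasi-likelihood F-test over all genes and Benjamini-Hochberg adjustment. A DEG passed both limits, 0.05 for the adjusted p and 2 for the fold change. Each comparison used its own 6 libraries, the interaction all 12. Genes given in full were the called ones with the largest changes per role, those with an interaction, and 16 motors and spindle kinesins named in any case. Others were added after their values were seen, and 1 gene of the adaptor list is not reported here.

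Transcript length, GC content and positions came from GENCODE on hg38, not the authors' annotation, and matched 25763 genes and all 65 motor genes. Promoters came from RefSeq (GRCh38.p14). Alternatives were DESeq2 1.42.0, RLE scaling, library size alone, 2 other filters, a replicate block, all 12 libraries, glmTreat, each library left out, and, chosen after seeing the data, GC or length trends removed (loess, span 0.5). The fits were tested on simulated data. Same-numbered GFP-positive and GFP-negative libraries were taken to be sorted from 1 culture. Their deviations had correlations over 16226 genes of 0.38, 0.12 and 0.33 for control and 0.20, 0.24 and 0.48 for treated cultures. Between fractions, libraries of unlike numbers had -0.42 to 0.17.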

Additional observations from a re-analysis of the deposited data

Results flagged for a closer look

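The response to cis-chlordane differed between the sort fractions for KIF20B and KIF23 by the test of the interaction in edgeR. For KIF20B the log2 fold change of GFP-positive cells exceeded that of GFP-negative cells by 2.12 (standard error 0.53, adjusted p = 0.048), and for KIF23 by 1.61 (standard error 0.35, adjusted p = 0.025). The KIF20B call was lost in 10 and the KIF23 call in 7 of the fits that leave out 1 library, with adjusted p up to 0.15 and 0.081. With the culture as a block the differences were 1.90 and 1.64, and KIF11, KIF20A, KIF2A, DCTN2, KIFC3 and KLC2 were called as well.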

How the results depend on the processing

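Of 1449 values recomputed for named genes, 1337 kept their direction and their side of the threshold, 74 lost the call, 15 gained one and 23 changed sign. Of 316 recomputed counts and medians, 282 stayed within the limits set. The causes were not tested. The counts in this section are given without shares over all genes, so they describe the settings and are not results about motor genes in particular. With glmTreat, which tests against the 2-fold limit itself, 1 motor gene was called higher and 2 lower in treated GFP-positive cells, 0 higher and 2 lower in treated GFP-negative cells, and 4 higher in GFP-positive controls, where the lower count is not given. With all 12 libraries in 1 fit, 10 rose in treated GFP-positive cells in place of 16. With the GC trend removed there were 3 higher DEGs in place of 5 there, and the median of transport kinesins, dynein-1 and dynactin was -0.16. With the length trend removed 11 rose in treated GFP-negative cells in place of 6. DESeq2 called 4 interactions upward, and the replicate block 5 upward and 3 downward.

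Leaving out 1 library gave 10 to 16 genes that rose in treated GFP-positive cells, and 0 to 3 upward interactions. In treated GFP-negative cells it gave 1 to 2 higher DEGs, 2 to 10 genes that rose and 11 to 20 that fell. The fewest rises (2) came without control GFP-negative replicate 2 and the most (10) without control GFP-negative replicate 3.

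Treated and control libraries of a number did not deviate together throughout (correlations of -0.04, 0.16 and 0.20 in GFP-positive and -0.03, 0.30 and -0.02 in GFP-negative cells), and with that block 5 higher and 5 lower DEGs were counted in GFP-positive and 3 and 10 in GFP-negative cells. Between the control fractions the block left 10 higher and 15 lower DEGs.

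The sign changed only for differences that did not pass the test in the reported fit. In GFP-positive cells these were DYNC1I2 (-0.017 with all 12 libraries, -0.44 with the GC trend removed, -0.045 to 0.094 with 1 library left out, the lowest without treated replicate 2), KIF1A (-0.038 with all 12 libraries, -0.021 with the length trend removed, -0.072 to 0.14 with 1 left out, below 0 without control or treated replicate 1), KIF11 (-0.29 with the GC trend removed, -0.13 to 0.31 with 1 left out, the lowest without treated replicate 3) and KIF3A (-0.21 with the GC trend removed). In GFP-negative cells they were KIF3A (0.098 with the block, 0.035 with the length trend removed, -0.40 to 0.35 with 1 left out, above 0 without control replicate 2 or 3 or treated replicate 3), KLC1 (-0.27 to 0.044, above 0 without control replicate 1 or treated replicate 3) and DYNC1H1 (-0.23 to 0.0071, above 0 without treated replicate 3). Between the control fractions it was KIF5B (0.16 with the block, 0.079 with all 12 libraries, -0.41 to 0.56 with 1 left out, above 0 without GFP-negative replicate 3 or GFP-positive replicate 1 or 2). Depth limits KIF4B, KIF6, KIF12, KIF14, KIF18A, KIF19, KIF26B, KIFC1 and KLC3, which had a mean under 1 CPM in at least 1 group.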
